A study of Mus musculus with 6 samples.

Results

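Mitosis and chromosome segregation genes were followed in fibroblasts that overexpress Fbxl10. The 49 genes were chosen by function, though with earlier results of these data known. They are mitotic kinases and cyclins, spindle checkpoint, anaphase, kinetochore, kinesin, condensin and cytokinesis genes. Of these, 48 were measured among 19936 genes, and the cyclin gene Ccnb1 is not analysed here. Each gene was read from its single-gene probe set, the brightest where there were several.

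The arrays compared RNA from HA-Fbxl10 cells (3 samples) with RNA from control cells (3 samples). HA-Fbxl10 cells are clones of a Tet-off line of mouse embryonic fibroblasts (MEFs) that received an HA-tagged Fbxl10 cDNA and a hygromycin resistance plasmid and were selected for expression of the tagged protein. Control cells are the same Tet-off line without transfection, so both groups carry the tetracycline-regulated transactivator. No cells with an empty vector were among the samples, and the number of clones behind the HA-Fbxl10 samples is unknown here. Effects of Fbxl10, of transfection and of selecting a clone cannot be told apart. The labels call the RNA samples independent, without stating separate cultures. The p-values therefore cover no more than the variation among these 6 samples, part or all of which may be technical.

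Fbxl10, now named Kdm2b, is a histone demethylase with a CpG-binding domain, and its log2 level was 9.77, 9.75 and 9.58 on the HA-Fbxl10 arrays, against 7.38, 7.45 and 7.28 on the control arrays (5.03-fold higher). Arrays of 1 group correlated with Pearson r of 0.994 to 0.996 over all probe sets, and arrays of different groups with 0.990 to 0.992. Of 12 fibroblast markers, 8 lay above the median level of all genes (5.36 on the log2 scale), among them Vim, Col1a1, Col1a2 and Fn1. Thy1 and Dcn lay below that median, and Fap and Lum lay below the lower quartile (3.75). Limma called 3 of the 12 lower (Col3a1 at -0.79, S100a4 at -0.64 and Pdgfra at -0.30), and the summed log2 level of all 12 was 100.05 to 100.98 in HA-Fbxl10 samples and 102.41 to 102.7 in controls. Its part in the results below was not tested. Of 30 markers of epithelial, blood, endothelial, pluripotent and muscle cells, 5 lay above the median level, and limma called 1 between groups, the endothelial receptor gene Kdr (log2 difference 0.51). Kdr was dim, with a mean of 4.205 in HA-Fbxl10 samples, below that median, and 3.69 in controls, below the lower quartile.

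Entry into mitosis is driven by Cdk1 bound to B-type cyclins, helped by the Polo and Aurora kinases. Kinetochores, protein assemblies on the centromere, hold chromosomes to spindle microtubules, and the spindle checkpoint blocks the anaphase-promoting complex (APC/C) until all are attached. The APC/C, switched on first by Cdc20 and then by Fzr1 (Cdh1), destroys securin and cyclin B, after which separase parts the sister chromatids and the cell divides. Most genes of this programme are transcribed late in the cell cycle and are low in resting fibroblasts.

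Many promoters of this programme are known to share 2 elements, the cell cycle genes homology region (CHR, core TTTGAA), bound by the MuvB subunit Lin54, and the CCAAT box, bound by NF-Y. RefSeq windows of 300 bases (GRCm38.p6, 250 before to 50 after the annotated start) existed for 43 of the 49 genes, 46 windows in all, since 3 genes (Bub3, Ect2 and Prc1) had more than 1 annotated start. They were searched for TTTGAA and for CCAAT on both strands, so that TTCAAA and ATTGG also counted. The CHR core was present for 30 of 43 mitotic genes (69.8%), against 13.8% of 8060 genes above the median level and 20.2% of all 27025 genes with a window. CCAAT was present for 34 of 43 (79.1%), against 43.3% and 41.1%, and both motifs for 27 (62.8%), against 6.90% and 8.97%. The motifs can overlap by 1 base. A match describes the letters only and does not show binding.

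The promoters of 6 genes that passed the adjusted threshold given below are shown because they carry these motifs in different numbers. Ttk, Anln and Mki67 rose, while Cks1b, Cdc20 and Fzr1 fell. Of these, only Anln and Fzr1 stayed past the threshold under all 16 alternative settings described at the end. Each window runs 5′ to 3′ in the direction of the gene, and capitals mark CHR cores (TTTGAA or TTCAAA) and CCAAT boxes (CCAAT or ATTGG). Adjoining motifs can form 1 run of capitals.
Ttk (chr9:83834439-83834738, plus strand): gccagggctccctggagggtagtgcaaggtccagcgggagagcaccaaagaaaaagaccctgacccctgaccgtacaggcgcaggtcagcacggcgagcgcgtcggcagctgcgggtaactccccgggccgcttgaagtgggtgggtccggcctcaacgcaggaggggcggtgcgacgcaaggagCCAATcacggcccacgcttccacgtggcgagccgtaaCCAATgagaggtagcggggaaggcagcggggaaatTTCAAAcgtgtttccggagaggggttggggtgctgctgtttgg
Anln (chr9:22389157-22389456, minus strand): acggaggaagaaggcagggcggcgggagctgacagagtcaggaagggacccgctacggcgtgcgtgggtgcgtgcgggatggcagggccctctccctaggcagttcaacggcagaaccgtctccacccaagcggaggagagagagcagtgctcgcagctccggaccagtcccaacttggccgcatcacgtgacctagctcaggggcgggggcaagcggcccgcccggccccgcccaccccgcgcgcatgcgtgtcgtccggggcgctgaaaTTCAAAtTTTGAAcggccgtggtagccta
Mki67 (chr7:135716330-135716629, minus strand): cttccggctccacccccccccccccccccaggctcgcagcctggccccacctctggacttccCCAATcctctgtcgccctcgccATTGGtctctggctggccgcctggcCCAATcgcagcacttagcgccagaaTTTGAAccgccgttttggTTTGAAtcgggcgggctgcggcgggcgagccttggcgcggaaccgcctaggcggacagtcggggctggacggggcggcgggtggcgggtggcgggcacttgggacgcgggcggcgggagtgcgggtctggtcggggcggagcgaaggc
Cks1b (chr3:89418242-89418541, minus strand): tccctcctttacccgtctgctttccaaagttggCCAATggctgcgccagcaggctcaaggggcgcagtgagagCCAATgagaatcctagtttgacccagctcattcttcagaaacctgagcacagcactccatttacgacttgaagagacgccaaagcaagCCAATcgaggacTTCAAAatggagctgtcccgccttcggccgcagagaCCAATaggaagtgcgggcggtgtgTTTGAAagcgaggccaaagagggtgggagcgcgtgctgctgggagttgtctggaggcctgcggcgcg
Cdc20 (chr4:118437294-118437593, minus strand): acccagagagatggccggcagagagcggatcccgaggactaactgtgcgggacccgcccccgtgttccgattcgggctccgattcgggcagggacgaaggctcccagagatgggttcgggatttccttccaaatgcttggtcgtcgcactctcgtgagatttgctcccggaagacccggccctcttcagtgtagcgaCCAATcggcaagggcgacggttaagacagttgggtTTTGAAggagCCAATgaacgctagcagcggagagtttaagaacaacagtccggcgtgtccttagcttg
Fzr1 (chr10:81378321-81378620, minus strand): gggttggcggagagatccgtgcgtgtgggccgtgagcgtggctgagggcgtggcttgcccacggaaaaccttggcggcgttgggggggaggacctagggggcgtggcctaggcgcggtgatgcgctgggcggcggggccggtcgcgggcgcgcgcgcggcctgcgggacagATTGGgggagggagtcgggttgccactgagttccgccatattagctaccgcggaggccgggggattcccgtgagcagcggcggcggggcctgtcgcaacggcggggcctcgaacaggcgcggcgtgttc

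Ttk held 1 CHR core and 2 CCAAT boxes, Anln 2 CHR cores and no CCAAT box, and Mki67 2 CHR cores and 3 CCAAT boxes. Cks1b held 2 CHR cores and 4 CCAAT boxes, Cdc20 1 and 2, and Fzr1 no CHR core and 1 CCAAT box. With a site in overlapping windows of a gene counted once, from the window of lower coordinate, the mitotic windows held 39 CHR cores and 76 CCAAT boxes. The CHR cores had a median distance of -14.0 bases from the start, and 28 of them lay within 50 bases of it. The CCAAT boxes had a median distance of -63.5 bases. Among genes called higher the CHR core was present for 4 of 6 with a window, among genes called lower for 3 of 7, and among those not called for 23 of 29.

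**Figure D1:**
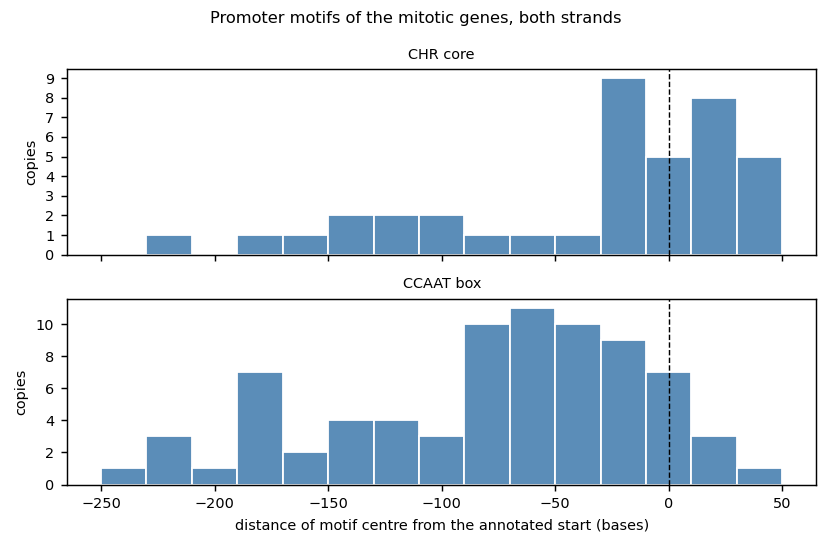
Positions of the CHR core (upper panel) and the CCAAT box (lower panel) in the promoter windows of the mitotic genes, with the distance of the motif's centre from the annotated start in bases on the x axis and the number of copies per 20 bases on the y axis. Bars count copies on both strands, each site once, and the dashed line marks the start. The 39 CHR cores centre near the start (median -14.0), and the 76 CCAAT boxes lie further upstream (median -63.5).

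All 48 measured genes lay well inside the expressed range, with mean log2 levels of 7.59 to 11.1, and 47 lay above the upper quartile of all genes (7.78). Every level and difference below is on the log2 scale of the RMA values, and a difference is HA-Fbxl10 minus control with its standard error (SE) from limma. Genes are said to have risen or fallen where the limma adjusted p (Benjamini-Hochberg over all genes) was under 0.05. By that rule 7 of 48 mitotic genes rose, 7 fell and 34 did not pass. That is 29.2% of them, against 21.1% of all genes tested and 37.0% of the 9968 genes above the median level. Among all genes 10.5% rose and 10.6% fell. With array medians subtracted, 9 mitotic genes rose and 3 fell, while among all genes 2650 rose and 1560 fell, against 2097 and 2111 without it. The count of calls was 9 without HA-Fbxl10 replicate 1, 2 or 3 and 7 without control replicate 1.

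The 14 changes were small, from 1.15-fold to 1.54-fold. None of the 48 genes reached 2-fold, and of the 4208 genes called among all genes 191 did. The median absolute difference was 0.16 for the 48 genes and 0.18 for genes above the median level. The median difference of the 48 was 0.02, against -0.0043 for all genes, and for single arrays the median deviation of the 48 genes from their own means lay between -0.0239 and 0.0403 in HA-Fbxl10 samples and between -0.0332 and 0.0171 in controls. The HA-Fbxl10 and control arrays did not overlap for 28 of 48 genes (58.3%), with 14 genes above and 14 below the controls. The share was 57.9% among genes above the median level and 36.0% among all genes (17.9% above and 18.1% below the controls). SEs were 0.06 to 0.11, and the widest 95% interval of a gene not called reached 0.42. These are bulk samples, so a change in the share of cells in mitosis and a change in RNA per mitotic cell cannot be told apart.

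**Figure D2:**
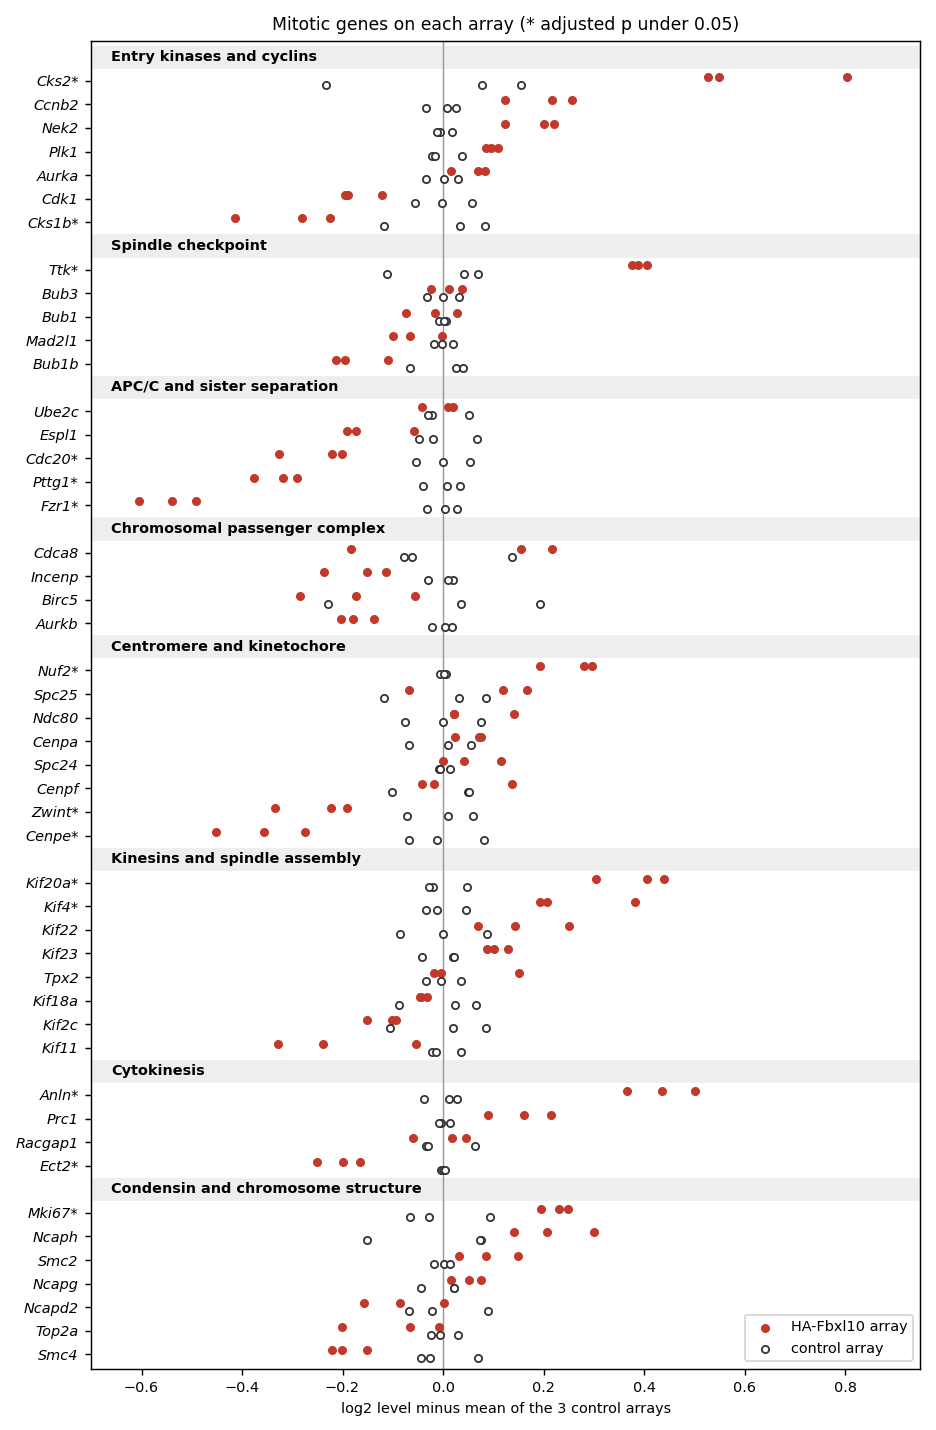
Log2 level of each of the 48 mitotic genes on each array, less the mean of its 3 control arrays (x axis), with genes grouped by function down the page and those past the adjusted threshold starred. Filled points are the 3 HA-Fbxl10 arrays and open points the 3 control arrays. Cks2 lies farthest to the right and Fzr1 farthest to the left, and in most groups some genes lie right of the controls and others left.

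Among the kinases, cyclins and Cdk subunits of mitotic entry, 1 of 7 measured genes rose and 1 fell. The 2 that changed were the paralogs Cks2 and Cks1b, which encode small proteins that dock Cdks onto phosphorylated substrates. Cks2 had log2 levels of 8.90, 8.92 and 9.17 on the HA-Fbxl10 arrays, against 8.45, 8.14 and 8.53 on the control arrays. It was the largest rise of the set, 1.54-fold (difference 0.63 ± 0.11, SE, limma adjusted p = 0.00382). All HA-Fbxl10 arrays lay above all controls, although control replicate 2 was lower than the others. The 3 probe sets named Cks2 gave 0.63, 0.54 and 0.66, and whether they can separate close copies of the gene was not tested.

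Cks1b had log2 levels of 9.79, 9.65 and 9.84 on the HA-Fbxl10 arrays, against 10.10, 9.95 and 10.15 on the control arrays, and fell by 0.31 ± 0.08 (limma adjusted p = 0.0222). The groups did not overlap, but the highest HA-Fbxl10 array and the lowest control array were close. The call was lost without HA-Fbxl10 replicate 1 or 2 or control replicate 1 or 3 (adjusted p of 0.0554 to 0.0783). Cdk1, the kinase that drives mitosis, had 11.03, 11.10 and 11.04 in HA-Fbxl10 samples, against 11.28, 11.17 and 11.22 in controls (-0.17 ± 0.06, adjusted p = 0.0991). Its cyclin partner gene Ccnb2 had 10.17, 10.13 and 10.03, against 9.94, 9.88 and 9.92, a difference of 0.20 ± 0.06. This was the gene next outside the threshold (limma adjusted p = 0.0578). Both genes had groups that did not overlap, in opposite directions, but with chromosome medians removed Ccnb2 was at -0.02 and Cdk1 at -0.07. The kinase genes Plk1 (0.10), Aurka (0.06) and Nek2 (0.18) did not pass, and the 95% interval of Plk1 ran from -0.04 to 0.23.

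In the spindle checkpoint, 1 of 5 genes passed. Ttk, also known as Mps1, is the kinase at the top of the checkpoint. It had log2 levels of 8.90, 8.92 and 8.89 on the HA-Fbxl10 arrays, against 8.58, 8.40 and 8.55 on the control arrays, and rose 1.31-fold (0.39 ± 0.07, limma adjusted p = 0.0034). The groups lay well apart. Its downstream partners gave -0.02 for the kinase gene Bub1, 0.01 for Bub3 and -0.06 for Mad2l1 (Mad2), whose product inhibits Cdc20. The 95% intervals of these 3 lay between -0.19 and 0.14. Bub1b, encoding the pseudokinase BubR1 of the same inhibitory complex, gave -0.17 (limma adjusted p = 0.101), and its groups did not overlap.

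All 5 genes of the APC/C and sister separation group had negative differences, and 3 fell. Fzr1, the co-activator that keeps the APC/C active from late mitosis into G1, showed the largest fall of the set. It had log2 levels of 9.42, 9.37 and 9.31 on the HA-Fbxl10 arrays, against 9.94, 9.915 and 9.88 on the control arrays, and was 1.46-fold lower (-0.55 ± 0.06, limma adjusted p = 0.000353). The 2 groups were separated by more than the whole range within either. Cdc20, the earlier co-activator, had 9.28, 9.26 and 9.16 in HA-Fbxl10 samples, against 9.54, 9.43 and 9.48 in controls, and fell by 0.25 ± 0.07 (limma adjusted p = 0.0254). That call was lost without HA-Fbxl10 replicate 2 or 3 or control replicate 1 or 3 (adjusted p of 0.0515 to 0.0949).

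Pttg1 encodes securin, the separase inhibitor that the APC/C destroys. It had 8.37, 8.31 and 8.39 on the HA-Fbxl10 arrays, against 8.64, 8.72 and 8.69 on the control arrays, and fell by 0.33 ± 0.06 (limma adjusted p = 0.00468). The groups did not overlap. Espl1, the separase gene, gave -0.14 (adjusted p = 0.198) and Ube2c, the APC/C's ubiquitin-conjugating enzyme, -0.0049 (95% interval -0.14 to 0.13).

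None of the 4 genes of the chromosomal passenger complex, which corrects faulty attachments, passed the limma test, and 2 had an unadjusted p under 0.05. The kinase gene Aurkb gave -0.17, its scaffold Incenp -0.17, the survivin gene Birc5 -0.17 and the borealin gene Cdca8 0.06. For Aurkb and Incenp all HA-Fbxl10 arrays lay below all controls, with limma adjusted p of 0.072 and 0.1. Birc5 and Cdca8 were the most variable of the 4, with SEs of 0.11 each and overlapping groups.

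Of 8 centromere and kinetochore genes, 1 rose and 2 fell. Nuf2, which pairs with Ndc80 in the main microtubule-binding complex of the kinetochore, had 9.34, 9.44 and 9.43 on the HA-Fbxl10 arrays, against 9.14, 9.15 and 9.15 on the control arrays, and rose by 0.26 ± 0.06 (limma adjusted p = 0.0157). Its groups did not overlap, and its call was lost without HA-Fbxl10 replicate 2 or 3 or control replicate 1 (adjusted p of 0.0526 to 0.057). The other subunit genes of that complex, Ndc80 (0.06), Spc24 (0.05) and Spc25 (0.07), did not pass. Whether they differed from Nuf2 was not tested.

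Cenpe, the kinesin that carries chromosomes to the spindle equator, had 8.04, 8.12 and 7.95 on the HA-Fbxl10 arrays, against 8.39, 8.33 and 8.48 on the control arrays, and fell by 0.36 ± 0.07 (limma adjusted p = 0.00661). All HA-Fbxl10 values were below all control values. Zwint, a binding partner of the outer kinetochore scaffold Knl1, had 10.05, 10.08 and 9.93, against 10.33, 10.20 and 10.28, and fell by 0.25 ± 0.07 (limma adjusted p = 0.0305). The call of Zwint was lost without HA-Fbxl10 replicate 1 or 3 or control replicate 1 or 3 (adjusted p of 0.0674 to 0.111). The centromeric histone gene Cenpa (0.06) and Cenpf (0.03), a large protein of the outer kinetochore, did not pass.

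Of 8 kinesin and spindle assembly genes, 2 rose and none fell at the adjusted threshold. Kif20a (MKLP2) moves the chromosomal passenger complex to the central spindle at anaphase. It had 9.98, 10.01 and 9.87 on the HA-Fbxl10 arrays, against 9.62, 9.55 and 9.54 on the control arrays, without overlap, and rose 1.30-fold (0.38 ± 0.07, limma adjusted p = 0.00292). The chromokinesin gene Kif4, whose product works with Prc1 in the spindle midzone, had 9.21, 9.39 and 9.20, against 8.97, 8.995 and 9.05, and rose by 0.26 ± 0.07 (limma adjusted p = 0.0298). HA-Fbxl10 replicate 2 was the highest array for Kif4. Its call was lost without HA-Fbxl10 replicate 1 or 2 or control replicate 1 or 2 (adjusted p of 0.0525 to 0.0971).

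The bipolar spindle motor gene Kif11 (Eg5) gave -0.21 (limma adjusted p = 0.104) and the microtubule depolymerase gene Kif2c gave -0.12. Kif23 (0.11), the motor of centralspindlin, the chromokinesin gene Kif22 (0.15), Kif18a (-0.04) and the Aurka activator gene Tpx2 (0.04) did not pass either. Kif11 was called lower without HA-Fbxl10 replicate 2 (-0.28, limma adjusted p = 0.03), the highest HA-Fbxl10 array for this gene.

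In cytokinesis, 1 of 4 genes rose and 1 fell. Anln encodes anillin, the scaffold of the contractile ring. It had 10.62, 10.68 and 10.55 on the HA-Fbxl10 arrays, against 10.19, 10.14 and 10.21 on the control arrays, and rose 1.35-fold (0.43 ± 0.06, limma adjusted p = 0.00137). The groups were far apart compared with the spread within each. Ect2, a guanine nucleotide exchange factor that acts at the division plane, had 10.27, 10.35 and 10.32, against 10.51, 10.52 and 10.52, and fell by 0.20 ± 0.06 (limma adjusted p = 0.0388). The call of Ect2 was lost without any 1 of the 6 arrays (adjusted p of 0.061 to 0.131). Racgap1, the centralspindlin subunit that recruits Ect2, gave 0.0014 (95% interval -0.15 to 0.15), and the midzone bundler gene Prc1 gave 0.15 (limma adjusted p = 0.124).

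Of 7 condensin and chromosome structure genes, 1 rose. Mki67, the proliferation marker Ki-67 that coats mitotic chromosomes, had 9.35, 9.30 and 9.34 on the HA-Fbxl10 arrays, against 9.08, 9.04 and 9.20 on the control arrays, and rose by 0.22 ± 0.07 (limma adjusted p = 0.0403). Its call was lost without HA-Fbxl10 replicate 1, 2 or 3 or control replicate 1 or 2 (adjusted p of 0.0722 to 0.123). The 5 condensin genes gave 0.09 for Smc2, -0.19 for Smc4, -0.08 for Ncapd2, 0.05 for Ncapg and 0.22 for Ncaph, none past the limma threshold, with 2 at an unadjusted p under 0.05. Smc2 and Smc4, the 2 ATPase arms of condensin, each had groups that did not overlap, in opposite directions. Smc4 had neighbours on its chromosome at -0.28 and was positive once a running median of 31 neighbouring genes (0.09) or the chromosome median (0.04) was removed. Top2a, the topoisomerase that untangles sister chromatids, gave -0.09 on its bright probe set. Its second probe set, with levels of 2.64 to 3.14, lay below the lower quartile of genes.

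On several chromosomes all mitotic genes had differences of the same sign. All 5 on chromosome 9 (Anln, Ttk, Ccnb2, Kif23 and Spc24) had positive differences, of 0.05 to 0.43, and all 4 on chromosome 3 (Cenpe, Cks1b, Ect2 and Smc4) negative ones, of -0.36 to -0.19. All 4 on chromosome 11 (Pttg1, Aurkb, Birc5 and Top2a) and all 3 on chromosome 10 (Fzr1, Zwint and Cdk1) were negative too, and all 5 on chromosome 7 positive. The chromosomes as a whole moved alike: the median difference of genes above the median level was 0.22 on chromosome 9, -0.23 on chromosome 3, -0.13 on chromosome 11 and -0.11 on chromosome 10, while on chromosome 7 it was 0.02. Chromosome 2 held 8 mitotic genes, 4 positive and 4 negative with none called (limma, 2 at an unadjusted p under 0.05), and its median was 0.02. Signs were also mixed on chromosome 4 (2 positive, 2 negative, median -0.09) and chromosome 15 (1 of each, median -0.07).

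**Figure D3:**
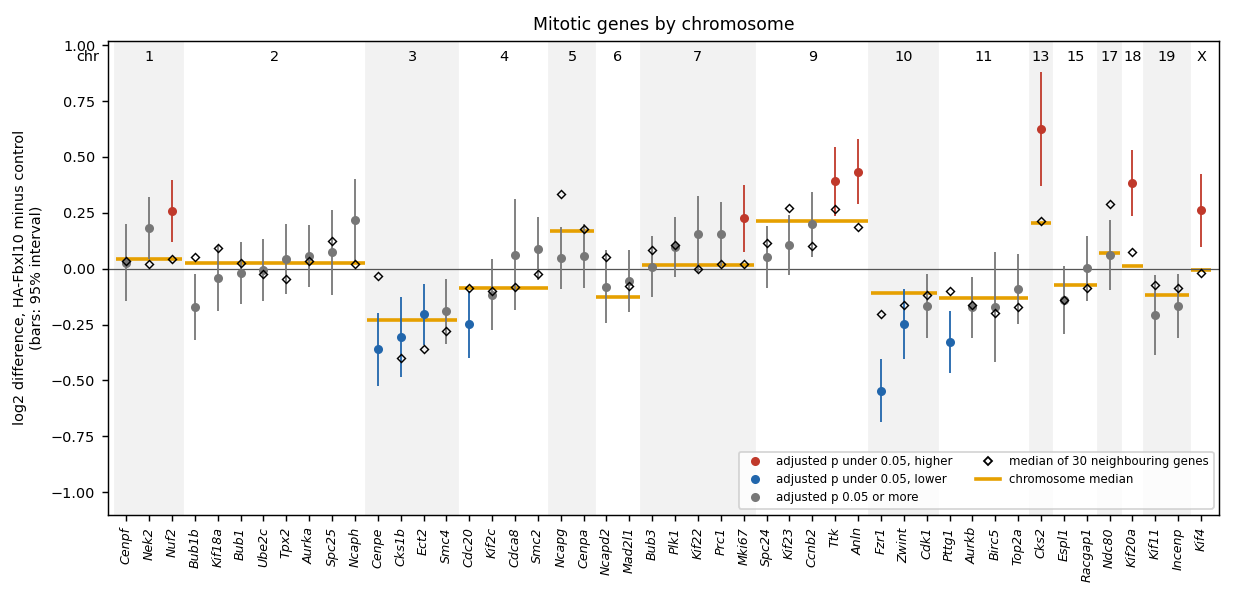
Log2 difference (HA-Fbxl10 minus control, y axis) of the 48 mitotic genes, ordered along the x axis by chromosome, with bars for the 95% interval and colours for the adjusted threshold. Diamonds give the median difference of the 30 neighbouring genes and horizontal lines the chromosome median over genes above the median level. The 5 genes on chromosome 9 lie above 0 and the 4 on chromosome 3 below 0, as do the medians of those chromosomes.

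Each mitotic gene was set beside the median difference of its 30 nearest neighbours on the chromosome among genes above the median level, itself left out. Across the 48 genes Pearson's r was 0.66 and Spearman's rank correlation 0.70, and 38 of 48 (79.2%) had the sign of their neighbourhood. Across all 9964 such genes Pearson's r was 0.42, Spearman's rank correlation 0.49 and the share of equal signs 68.7%. These are descriptions: the points come from the same 6 arrays, nearby genes share neighbours, and what makes neighbouring genes move together was not tested. Of the 14 genes called, 13 had the sign of their neighbourhood, and Kif4 on chromosome X was the exception. Of the 34 not called, 25 (73.5%) had it. The share among called genes of the whole array was not computed, so the 13 of 14 has no like background.

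**Figure D4:**
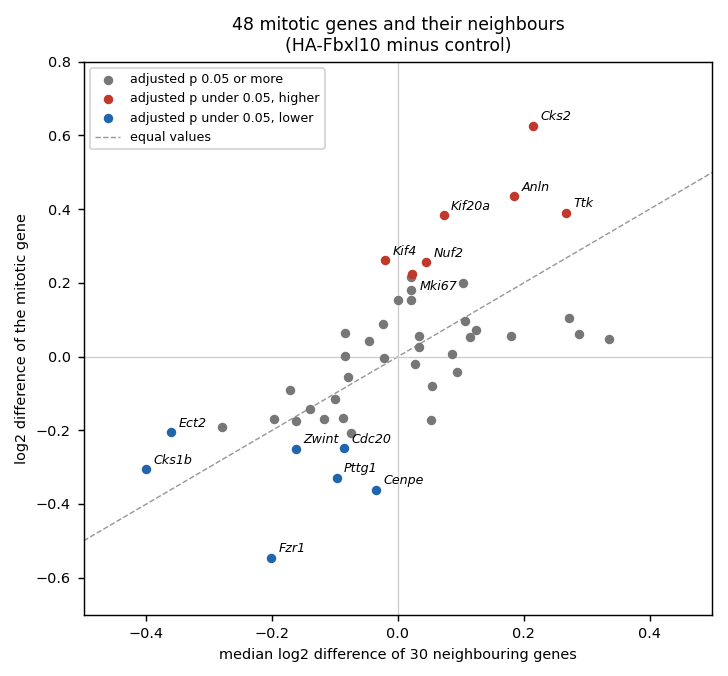
Log2 difference (HA-Fbxl10 minus control) of each of the 48 mitotic genes (y axis) against the median log2 difference of its 30 neighbouring genes (x axis), with equal values on the dashed line. Genes past the adjusted threshold are coloured and named. Cks1b and Ect2 lie above the line beside neighbourhoods of -0.40 and -0.36, and Kif20a, Kif4, Cks2, Anln, Fzr1 and Cenpe lie among those away from the line on the side of their own change.

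The neighbourhood medians differed in size beside the called genes. They were -0.40 beside Cks1b and -0.36 beside Ect2, lower than the genes' own values, and 0.27 beside Ttk. They were -0.20 beside Fzr1, 0.18 beside Anln and 0.21 beside Cks2, in each case under the gene's own difference in size. Beside Kif20a (0.07), Kif4 (-0.02), Cenpe (-0.03), Nuf2 (0.04) and Mki67 (0.02) they were small. Removing a running median of 31 genes from every array before the fit left 7 of 48 genes called, against 15.7% of all genes. Only genes above the median level were corrected, as all 48 mitotic genes were, while dimmer genes kept their values. The share called among the corrected genes alone was not computed. Fitted in that way, 6 of the 14 calls remained: Anln (0.24), Cks2 (0.41), Kif20a (0.31), Kif4 (0.28), Fzr1 (-0.32) and Cenpe (-0.35), with limma adjusted p of 0.008 to 0.0429. Cenpe was not called with chromosome medians removed (-0.13, adjusted p = 0.229).

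The other 8 calls were lost in that fit. Ttk gave 0.12 (limma adjusted p = 0.252), Zwint -0.07 (0.543), Pttg1 -0.22 (0.0596), Cdc20 -0.20 (0.0746), Nuf2 0.18 (0.0829) and Mki67 0.18 (0.0981). Cks1b and Ect2 turned positive, at 0.08 and 0.14 (adjusted p of 0.523 and 0.174). The 1 gene called anew was Ncapg, at -0.25 (limma adjusted p = 0.0192), against 0.05 without the correction, beside neighbours with a median of 0.34.

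Of 140 further mitotic genes measured, 38 rose and 14 fell, with a median difference of 0.08. That is to be read against the 10.5% and 10.6% of all genes, and the 19.2% and 17.8% of genes above the median level, that did so. With the running median removed, 31 of the 140 were called, 27 of them among the 52. In that fit 15.7% of all genes were called, dimmer genes without correction included, and the share among genes of like level was not computed. Beside the further mitotic genes the regional medians also moved, with r of 0.64 across the 139 genes that had a neighbourhood. Among 15 transcriptional regulators of the programme 6 rose and 1 fell. E2f5, a repressor-type E2F that can join the DREAM complex, fell by 1.15 ± 0.08 (limma adjusted p = 2.39e-05), the largest change among all mitotic genes listed here. Lin54 (0.44), a subunit of the MuvB core, and Mybl2 (B-Myb, 0.45) and E2f4 (0.32), whose products join that core in different complexes, rose, as did Foxm1 (0.29), which was picked after its value was seen. Lin54 and Foxm1 lost their calls with the running median removed (0.26 and 0.09, adjusted p of 0.0608 and 0.426), and E2f4 lost its call with chromosome medians removed.

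**Figure D5:**
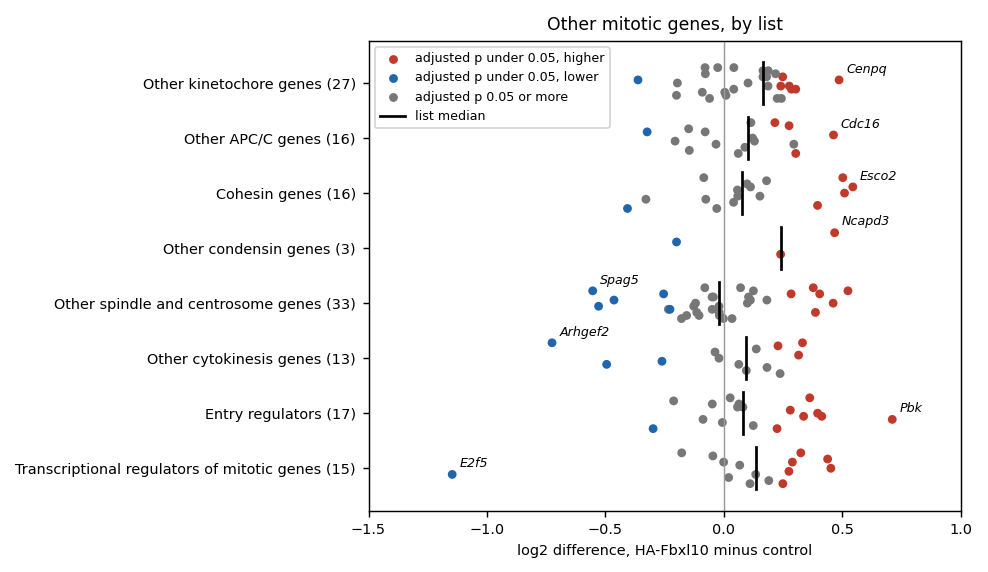
Log2 difference (HA-Fbxl10 minus control, x axis) of the 140 further mitotic genes, in 8 lists down the page with the number measured in brackets; each point is a gene, colours give the adjusted threshold and black bars the list medians. List medians lie between -0.02 and 0.24, and E2f5 at -1.15 lies farthest from 0.

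Of 17 regulators of mitotic entry 7 rose and 1 fell. The gene that fell was Ccnh (-0.30), named here after its value was seen. Pbk, a mitotic kinase gene, rose by 0.71 ± 0.07 (limma adjusted p = 0.000199). The Cdk-activating phosphatase gene Cdc25a (0.41), the Cdk-activating kinase gene Cdk7 (0.40) and the PP2A inhibitor gene Arpp19 (0.36) rose too, and all 3 lost their calls with the running median removed (adjusted p of 0.0664 to 0.434). Cdk7 also lost its call with its 2 probe sets averaged (0.23, limma adjusted p = 0.145). Arpp19 also lost its call without HA-Fbxl10 replicate 2 or 3 or control replicate 2 (0.0555 to 0.0636).

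Of 16 cohesin genes 4 rose and 1 fell. The ring subunit gene Smc1a (0.50), the cohesin acetyltransferase gene Esco2 (0.54) and the regulator Pds5b (0.51) rose, and Hdac8, which deacetylates cohesin for reuse, fell by 0.41 (SEs 0.06 to 0.07, limma adjusted p of 0.000427 to 0.0041). These 4 stayed past the threshold with the running median removed, at 0.30, 0.30, 0.27 and -0.47.

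Of 27 further kinetochore genes 6 rose and 1, Pmf1 of the Mis12 complex, fell (-0.36). Cenpq of the inner kinetochore (0.49), Ska2 of the microtubule-binding Ska complex (0.30) and Cenpc1 (0.28), a link between centromeric chromatin and outer kinetochore, rose. Pmf1 had neighbours at -0.35 and lost its call with the running median removed (0.0083), and so did Cenpc1 (0.10, adjusted p = 0.411), whose call was also lost without HA-Fbxl10 replicate 2 or control replicate 2 (0.0753 and 0.0766).

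Of 16 further APC/C genes 4 rose and 1 fell. The subunit genes Cdc16 (0.46), Anapc13 (0.30) and Anapc5 (0.28) rose and Anapc11, its RING subunit gene, fell (-0.32, limma adjusted p = 0.0272). Of these Cdc16 alone stayed past the threshold with the running median removed (0.22, adjusted p = 0.0359). Anapc11 lost its call without HA-Fbxl10 replicate 1 or control replicate 2 or 3 (0.0749 to 0.0873).

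Of 33 further spindle and centrosome genes 6 rose and 5 fell. The kinesin gene Kif15, a partner of Kif11 in keeping the spindle bipolar, rose by 0.52 ± 0.07, and the spindle protein gene Spag5 (astrin) fell by 0.55 ± 0.08. The augmin subunit genes Haus1 and Haus7, needed for microtubule branching in the spindle, fell by 0.46 ± 0.07 and 0.53 ± 0.07 (limma adjusted p of 0.0012 and 0.000669). The augmin genes Haus8 (0.40) and Haus2 (0.38), named here after their values were seen, rose (limma adjusted p of 0.00241 and 0.0228). Each of these stayed past the threshold with the running median removed. Haus4 (-0.05), Haus5 (-0.04) and Haus6 (-0.0023) did not pass. Of 13 further cytokinesis genes 3 rose and 3 fell, with Septin7 (0.33) and Septin2 (0.32) higher and Septin9 (-0.50) and Arhgef2 (-0.73) lower. Septin7 went to 0.02 with the running median removed (limma adjusted p = 0.924). Of the 3 genes of the second condensin complex Ncapd3 (0.47) and Ncapg2 (0.24) rose and Ncaph2 fell (-0.20). Ncapd3 lost its call with the running median removed (0.13, adjusted p = 0.183). Ncapg2 lost its call without any 1 array other than HA-Fbxl10 replicate 1 (0.0621 to 0.109) and Ncaph2 without any 1 array (0.0744 to 0.131).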

How the data were processed

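RNA of 3 HA-Fbxl10 and 3 control samples, 300 ng each per the labels' protocols, was labelled with biotin and hybridised to Affymetrix arrays. The deposited values are log2 expression per probe set, and per the submitters' processing notes they come from RMA, of unstated version. Because RMA equalises the arrays, a change shared by most genes would be hidden. No detection calls or array batches were given, so batch was not tested. Having 3 arrays a group limits precision.

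The platform annotation assigns 1 gene to 21789 of the 35556 probe sets and several to 1621, and leaves 12146 without a name here. Symbols were updated by Entrez identifier (21698) or accession (3) to RefSeq of GRCm38.p6, used for names, gene order and promoter windows, and 88 were kept. The probe set with the highest mean was taken per gene. Two-sided limma 3.58.1 tests (R 4.3.3) ran on 19936 genes and were tested on simulated data. No replicate block was used. The members, lists and position corrections were chosen with earlier results of these data known. The members past the threshold, the next outside it and, per further list, the 4 largest called changes were named by rule.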

Additional observations from a re-analysis of the deposited data

How the results depend on the processing

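The 14 calls among 48 mitotic genes (7 higher, 7 lower) moved with the variance model and with position. An intensity trend in the variance, with or without robust estimation, gave 24 calls (11 higher, 13 lower), and an adjusted p of 0.01 gave 7 (4 and 3). The running median of 31 genes removed gave 7 (4 and 3), chromosome medians removed gave 6 (1 of them lower), the replicate block gave 9 (4 lower), quantile normalisation gave 12 lower and array medians subtracted gave 3 lower. Leaving out 1 array gave 7 to 11 calls (4 to 7 higher, 3 to 6 lower). The median difference of the 48 genes, 0.02, was -0.0272 after quantile normalisation, 0.072 with array medians subtracted and -0.01 to 0.03 without single arrays, so its sign is not settled. Anln, Cks2, Fzr1 and Kif20a kept their calls under all 16 alternatives, and Cenpe lost its call with chromosome medians removed. The sign changed for 15 of the 48 genes with the running median removed and for 13 with chromosome medians removed, mostly genes not called. Among genes called with or without the correction these were Cks1b (0.0813), Ect2 (0.1357) and Ncapg (-0.2497) with the running median removed and Ect2 (0.026) with chromosome medians removed, and among the further genes named Pmf1 (0.0083) with the running median removed. These corrections subtract regional values, in which each gene itself takes part, from genes above the median level only. Whether they remove more than a regional shift was not tested. Of 34 genes not called, 11 were called in some alternative. The 52 calls among further mitotic genes (38 higher, 14 lower) became 33 with chromosome medians removed (23 higher), 31 with the running median removed (21 higher), 27 at an adjusted p of 0.01 (19 and 8), 8 lower with array medians subtracted and 36 to 45 without single arrays (25 to 36 higher, 8 to 13 lower). These settings for the further genes were added after seeing the data. The calls among all genes fell to 2536 at an adjusted p of 0.01 (1227 higher, 1309 lower), and single arrays left out gave 3208 to 3853. Replicate numbers were not taken as pairs, because the labels do not say that a number marks a shared culture or day. Deviations of same-numbered arrays from their group means had correlations over genes of 0.085, -0.283 and -0.093. Other pairs of arrays had -0.224 to 0.281. Deviations from means of 3 arrays depend on each other, so these values cannot settle pairing. The block gave 3397 calls among all genes. Signal over background was not given, so it could not be used to limit calls.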
